A study of Zea mays with 6 samples.

Results

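The maize genes described here carry the names of AGAMOUS-class MADS-box factors, the C-class and D-class regulators of reproductive organs in the flower. They were chosen by the best Swiss-Prot match given in the gene table: all genes named MADS-box transcription factor 3, 13, 21 or 58, or named AGAMOUS itself. This gave 9 of the 42508 genes listed, 4 with C-class names and 5 with D-class names. RNA was measured in immature ears of line A12, which carries teosinte DNA at the kernel row number locus qKRN5.04b on chromosome 5, and of line B46, which carries maize DNA there. Both are nearly isogenic recombinant inbred lines from a teosinte by maize cross, grown under standard conditions and, per the labels, in the same batch. Ears of 1.5 to 2.0 mm, at the inflorescence meristem and spikelet pair meristem stages, came from plants with 6 to 9 leaves. Each line has 3 libraries of polyadenylated RNA from separate pools of at least 50 plants. With 1 line per genotype, the qKRN5.04b segment and any other difference between the lines cannot be told apart.

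MADS-box proteins bind DNA through the MADS domain and pair with one another through the K-box, and combinations of classes set the identity of each floral organ. In Arabidopsis, AGAMOUS specifies stamens and carpels and ends the activity of the floral meristem. In rice, MADS3 and MADS58 share these C-class tasks, MADS3 mainly in stamens and MADS58 mainly in carpels and meristem determinacy, while MADS13 specifies ovules and MADS21 belongs to the same D class. The names below are similarity annotations to such proteins and do not show that the maize genes have the same tasks.

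In A12 ears 6 of the 9 genes had more reads than in B46 ears, from near absence in B46, and the highest values were those of the MADS58-named gene and a pair of MADS13-named genes. A single MADS21-named gene was at a similar level in both lines, and 2 genes had 0 reads in every library. Levels are given as reads, as CPM (reads per 1e6 reads of the library, scaled by edgeR's TMM factors) or, where genes are compared with one another, as the deposited FPKM, which divides by gene length. The threshold for a call was an adjusted p of 0.05. Totals were 14625831 to 15675012 reads per A12 library and 15145371 to 15432882 per B46 library, so that 3 reads, the limit that a count of 0 allows, correspond to 0.191 to 0.209 CPM. Of 22741 genes tested, 2242 were called (9.86%), 1048 of them higher (4.61%) and 1194 lower (5.25%) in A12.

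**Figure D1:**
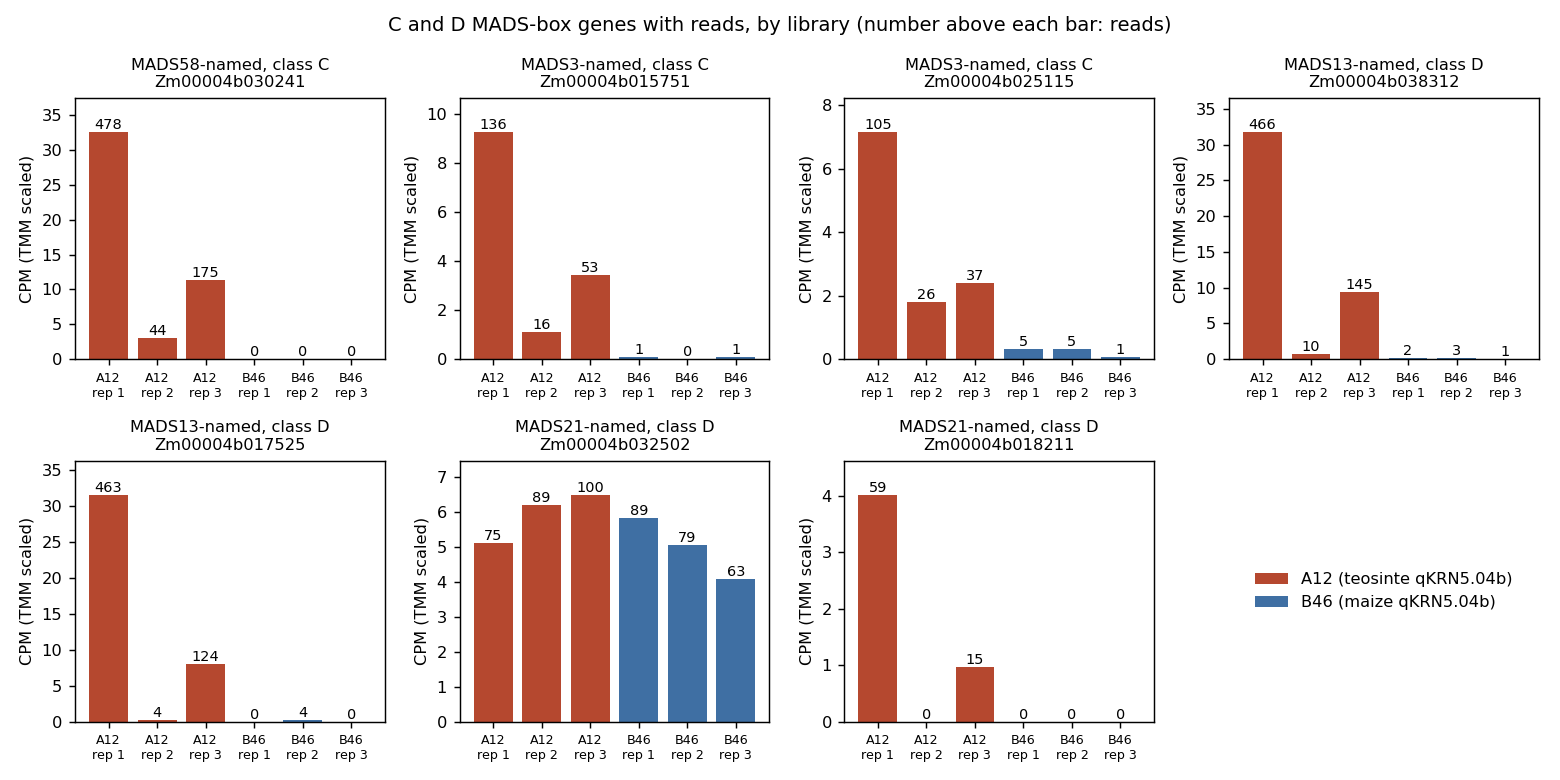
Level of the 7 genes with reads in each of the 6 libraries. Bars give CPM (linear axis from 0, its range set for each gene) and the digits over a bar its read count, with A12 on the left and B46 on the right of each panel. In 6 panels A12 replicate 1 is the highest library, while the MADS21-named Zm00004b032502 lies between 4.07 and 6.49 CPM throughout.

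The MADS58-named gene, Zm00004b030241, was detected in A12 ears only among these libraries. It lies on chromosome 6 from 133186970 to 133195597 on the plus strand, and its product has both the MADS domain and the K-box. It had 478, 44 and 175 reads in A12 replicates 1, 2 and 3, against 0, 0 and 0 reads in the B46 replicates. All A12 libraries thus stood above all B46 libraries, and A12 replicate 2 was far below the other A12 libraries. The A12 mean was 15.7 ± 15.2 CPM (SD, n = 3), at least 80.8-fold higher than the B46 limit of 3 reads per library, and at least 37.2-fold higher without A12 replicate 1. The edgeR quasi-likelihood test gave an adjusted p of 0.0266. Ears were measured whole, so more cells that express a gene and more RNA per cell cannot be told apart, here and below.

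A pair of genes carried the name of MADS3, the rice factor of stamen identity. Zm00004b015751, on chromosome 3 from 4849880 to 4860843 on the minus strand, encodes both domains. Its reads were 136, 16 and 53 in the A12 replicates, against 1, 0 and 1 in the B46 replicates. The lowest A12 library was still clear of the highest B46 library. Means were 4.61 ± 4.20 CPM in A12 and 0.0434 ± 0.0375 CPM in B46 (SD, n = 3 each). Reads pooled over the libraries of each line gave a 107-fold ratio with a 95% exact counting interval of 29.3 to 890. That interval leaves out the spread between libraries. On the log2 scale the gene rose by 6.49 (SE 1.11), with an edgeR adjusted p of 0.0148.

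The other MADS3-named gene, Zm00004b025115, lies on chromosome 8 from 24129962 to 24139835 on the minus strand, and no Pfam domain is listed for it. It had 105, 26 and 37 reads in the A12 replicates, against 5, 5 and 1 in the B46 replicates. Here too the lines did not overlap, and the A12 libraries were closer to one another, relative to their mean, than for the other genes that rose. Its means were 3.79 ± 2.93 CPM in A12 and 0.237 ± 0.149 CPM in B46 (SD, n = 3 each), a log2 rise of 3.95 (SE 0.75, edgeR adjusted p = 0.0203). The sources used here do not give how reads of similar copies were shared out or whether strand was used, so the split of reads between genes of the same name is uncertain.

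The C-class gene named for AGAMOUS of Petunia, Zm00004b019756, had 0 reads in all 6 libraries. It is listed on chromosome 3 from 230761845 to 230802469 with a transcript of 498 bases spread over 40625 bases, and with the MADS domain alone. Its absence from the ear was not shown, since 0 reads allow up to 0.191 to 0.209 CPM per library.

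The D-class group held the largest contrasts between A12 libraries. Zm00004b038312, named for the rice ovule factor MADS13, lies on chromosome 10 from 29250639 to 29254693 on the plus strand and has the MADS domain without a listed K-box. It had 466, 10 and 145 reads in the A12 replicates, against 2, 3 and 1 in the B46 replicates. The lines did not overlap, although A12 replicate 2, at 0.696 CPM, was close to the highest B46 library, at 0.191 CPM. Means were 13.96 ± 16.03 CPM in A12 and 0.129 ± 0.0634 CPM in B46 (SD, n = 3 each), a log2 rise of 6.67 (SE 1.47, edgeR adjusted p = 0.0332).

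Its namesake Zm00004b017525, on chromosome 3 from 140575676 to 140581248 on the minus strand, has the K-box without a listed MADS domain. Reads were 463, 4 and 124 in the A12 replicates, against 0, 4 and 0 in the B46 replicates. High levels in A12 replicates 1 and 3 thus stood beside an A12 replicate 2 that exceeded the highest B46 library by only 0.0234 CPM. Means were 13.3 ± 16.3 CPM in A12 and 0.0850 ± 0.147 CPM in B46 (SD, n = 3 each). The gene missed edgeR's default filter on low counts and had no test there. An exact two-sided permutation test gave p = 0.1, the smallest value 3 against 3 libraries allow. With a filter of 10 reads in 2 libraries, chosen after the values were seen, edgeR gave an adjusted p of 0.0496, and with no filter 0.0323. DESeq2 gave an adjusted p of 0.0135, while limma on FPKM gave 0.124 to 0.180 over its 3 settings. The edgeR adjusted p was 0.00838 without A12 replicate 2, where the gene passed the default filter, and 0.130 to 0.193 without B46 replicate 1, 2 or 3.

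The third MADS13-named gene, Zm00004b038541, had 0 reads in all 6 libraries. It is a model of 261 bases on chromosome 10 from 57513757 to 57514711, with no Pfam domain listed.

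The MADS21-named genes differed from each other. Zm00004b018211, on chromosome 3 from 174094602 to 174099861 on the minus strand, with both domains, had 59, 0 and 15 reads in the A12 replicates, against 0, 0 and 0 in the B46 replicates. A12 replicate 2 was at 0 like every B46 library, so the lines overlapped at that value. Its A12 mean of 1.67 ± 2.10 CPM (SD, n = 3) was at least 8.59-fold higher than the B46 limit of 3 reads per library. That bound was 2.51-fold without A12 replicate 1 and 12.9-fold without A12 replicate 2. It too missed the filter, the exact two-sided permutation test gave p = 0.4, and edgeR without a filter gave an adjusted p of 0.0911.

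Zm00004b032502, the other MADS21-named gene, had 75, 89 and 100 reads in the A12 replicates, against 89, 79 and 63 in the B46 replicates. The lines overlapped, and A12 replicate 1, the highest library for the other 6 genes with reads, was the lowest A12 library here. Means were 5.93 ± 0.724 CPM in A12 and 4.98 ± 0.880 CPM in B46 (SD, n = 3 each). The log2 fold change was 0.25 (SE 0.21, 95% interval -0.25 to 0.75, edgeR adjusted p = 0.492), and at this depth differences within that interval could not be detected. The gene lies on chromosome 9 from 60496829 to 60497467. Its transcript length of 639 bases equals its span, so the model has no intron, and the submitters' family column lists it as M-type MADS where the other 8 are listed as MIKC, the plant type with a K-box.

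Of the 9 genes, 5 could be tested with edgeR, and 4 of them were higher in A12 and 0 lower, beside 4.61% higher over all genes tested. A gene near 0 in B46 passes the filter only through its A12 reads and so had to differ, and this share carries no further weight. DESeq2 called 5 of the 9 higher, with Zm00004b017525 as the fifth, beside 6.77% of the genes it tested called higher and 13.7% in either direction. limma on log2(FPKM + 0.1) called 3 higher, without Zm00004b038312, beside 4% higher and 8.49% in either direction. In 4 of the 5 genes tested with edgeR every A12 library lay above every B46 library, beside 16.2% of all genes tested. These 4 genes passed the filter only through their A12 reads, so the lack of overlap carries no further weight either. The genes called by DESeq2 and limma were likewise near 0 in B46, and the same limit holds for their counts.

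The 4 calls depended on which library was left out. All of them held without A12 replicate 1, the library with the highest values (edgeR adjusted p = 0.00715 for the MADS58-named gene and 0.0192 for Zm00004b038312), and without A12 replicate 2. All 4 passed the threshold no longer without A12 replicate 3, or without B46 replicate 1, 2 or 3, where edgeR adjusted p-values were 0.0518 to 0.141. The share called over all genes was 19.3% without A12 replicate 1 and 9.41% without A12 replicate 2, but 1.73% without A12 replicate 3, and 3.07%, 1.86% and 6.09% without B46 replicates 1, 2 and 3. The fold changes kept their direction in every one of these fits. Without A12 replicate 1 they were 5.48 for Zm00004b015751, 3.11 for Zm00004b025115 and 5.21 for Zm00004b038312 on the log2 scale.

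Per length, the order of the genes differed between the lines. In A12 the mean FPKM was 11.4 ± 13.1 for the MADS13-named Zm00004b038312 and 11.1 ± 10.8 for the MADS58-named gene. Next came the MADS21-named Zm00004b032502 at 9.27 ± 1.10 FPKM and the MADS13-named Zm00004b017525 at 5.77 ± 7.08 FPKM (SD, n = 3). The MADS3-named genes followed at 3.05 ± 2.79 FPKM for Zm00004b015751 and 2.67 ± 2.07 FPKM for Zm00004b025115, and Zm00004b018211 was last at 1.40 ± 1.76 FPKM. No neighbours in that order differed beyond their spread. In B46 the order opened with Zm00004b032502 at 7.78 ± 1.38 FPKM, and this gene stood apart, since the next, Zm00004b025115, was at 0.166 ± 0.105 FPKM. Within A12 the leading gene varied: it was Zm00004b038312 in replicate 1, at 26.0 FPKM, and Zm00004b032502 in replicates 2 and 3, at 9.68 and 10.1 FPKM.

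The A12 libraries differed from one another in the same direction for most of these genes. Replicate 1 exceeded replicate 3, and replicate 3 exceeded replicate 2, for 6 of the 7 genes with reads, or 85.7%, against 28.5% of all genes tested. The ratio of replicate 1 to replicate 2 in CPM was 3.96 for Zm00004b025115, 8.33 for Zm00004b015751 and 10.6 for the MADS58-named gene. It was larger for the D-class genes, at 45.6 for Zm00004b038312 and 113 for Zm00004b017525, while Zm00004b032502 had a ratio of 0.825 and the median over all genes tested was 0.980. Between replicates 1 and 3 the ratios lay closer together, from 2.70 to 4.13 for the same 6 genes.

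Zm00004b017525 had 4 reads in A12 replicate 2, so its ratio carries a large counting error. When Zm00004b032502 is left out, the make-up of the C-class and D-class reads shows the same contrast from summed reads. Over the 6 genes other than Zm00004b032502, a set chosen after the values were seen, D-class genes made up 988 of 1707 reads in A12 replicate 1, or 57.9% (95% exact binomial interval 55.5 to 60.2%). They made up 14 of 100 reads in replicate 2, or 14% (7.87 to 22.4%), and 284 of 549 reads in replicate 3, or 51.7% (47.5 to 55.98%). Among these 6 genes, the replicate with the fewest reads was thus the one in which C-class reads prevailed. Its interval did not reach those of the other A12 libraries. This rests on leaving out Zm00004b032502. With that gene kept, D-class genes summed to 72.5, 7.17 and 24.9 CPM in A12 replicates 1, 2 and 3. C-class genes summed to 49.0, 5.98 and 17.2 CPM, so the D-class sum was then the higher in replicate 2 as well. On the FPKM scale the D-class shares were 55.6%, 14.1% and 49.9%. The intervals and read limits here reflect counting alone and leave out the spread between libraries. Without molecular identifiers, reads may also be copies of the same molecule. B46 libraries held 8, 12 and 3 reads of the 6 genes, too few for a share.

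**Figure D2:**
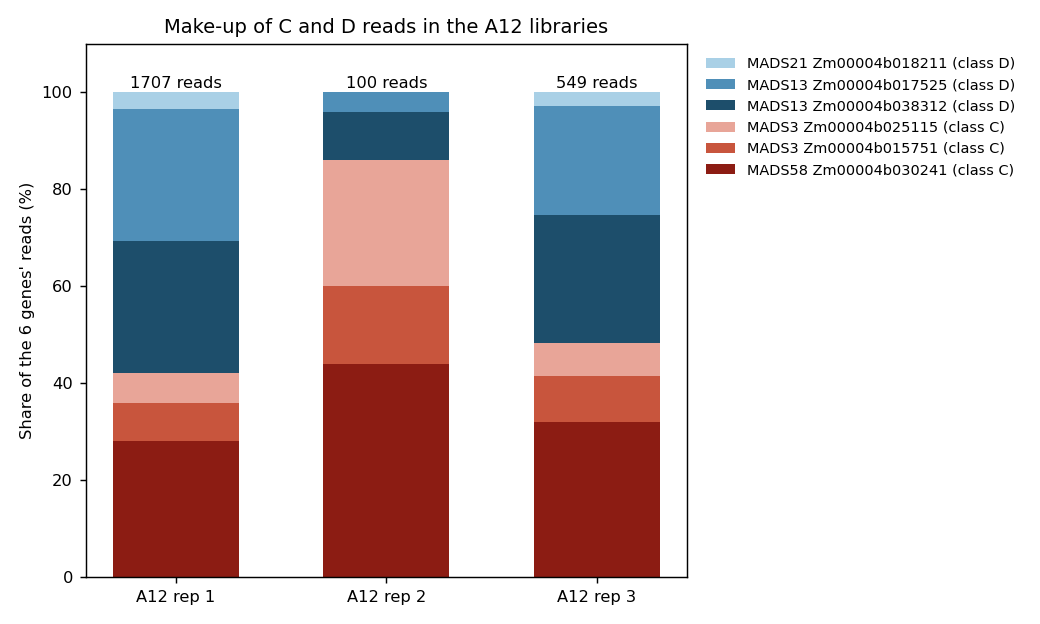
Share of each of 6 genes in their summed reads, for the 3 A12 libraries (vertical axis in percent of reads, total above each bar). Red shades are C-class names and blue shades D-class names, with the D-class Zm00004b032502 left out. The blue part is 14% in replicate 2 and over 50% in the other libraries.

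Reproductive MADS-box classes that act with C and D factors had the same direction. SEPALLATA-class proteins are the shared partners of the other floral classes, and 6 of the 8 tested genes with such names rose, beside 4.61% of all genes tested, while 2 did not pass the test. Both AGL6-class genes rose, as did all 4 tested class B genes, whose rice namesakes specify lodicules and stamens. The median log2 fold change was 7.75 over the tested SEPALLATA-class genes, 8.49 over the AGL6-class genes and 6.60 over the class B genes, against 0.01 over all genes tested. Most of these genes were near 0 in B46 and passed the filter through their A12 reads, so their counts and medians carry no further weight. With 1 library left out, called genes numbered 3 to 6 in the SEPALLATA class and 1 to 4 in class B (both lowest without B46 replicate 2), and 2 in the AGL6 class throughout. Of 9 genes named for the B-sister class, which acts in ovule coats and seeds, 3 had any read and 0 passed the filter.

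Among the partners, the MADS1-named Zm00004b034170 had 1804, 376 and 885 reads in the A12 replicates, against 0, 14 and 0 in the B46 replicates (edgeR adjusted p = 0.00548). Its namesake Zm00004b000789 had 2348, 408 and 1005 reads in the A12 replicates, against 0, 18 and 0 in the B46 replicates (edgeR adjusted p = 0.00720). All their B46 reads were in replicate 2, and without it the fitted log2 fold changes moved to 13.01 for Zm00004b034170 and 13.31 for Zm00004b000789, beside 7.80 and 7.74 over all libraries. With 0 reads left in B46, the values 13.01 and 13.31 depend on the prior count and are no estimates of size. The MADS5-named Zm00004b031849 was even across A12, with 93.2 ± 9.13 CPM in A12 and 8.22 ± 4.05 CPM in B46 (SD, n = 3 each). The class B gene named for MADS16, the rice stamen and lodicule factor, Zm00004b029254, was at 45.1 ± 25.7 CPM in A12 and 0.558 ± 0.253 CPM in B46 (edgeR log2 fold change 6.31, SE 0.57, adjusted p = 0.00183). Some class B expression was present in both lines: the MADS2-named Zm00004b018236 was at 53.3 ± 16.05 CPM in A12 and 19.6 ± 0.101 CPM in B46, a rise of 1.44 (SE 0.20, edgeR adjusted p = 0.00781, and 0.0548 without B46 replicate 2). Both AGL6-class genes are named MADS6. Zm00004b022334 had 373, 140 and 252 reads in the A12 replicates, against 1, 0 and 0 in the B46 replicates (edgeR adjusted p = 0.00104). Its pooled reads gave a ratio of 799 with a 95% exact counting interval of 143 to 31609, which leaves out the spread between libraries. Zm00004b014719 had 769, 414 and 609 reads in the A12 replicates, against 0, 8 and 0 in the B46 replicates (edgeR adjusted p = 0.00133). Its fitted log2 fold change of 7.80 moved to 12.24 without B46 replicate 2, a value that likewise depends on the prior count.

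The MADS-box classes that act before the floret did not share this direction. In the AP1/FUL class, which sets floral meristem identity, 1 of 7 tested genes fell, beside 5.25% of all genes tested, and 0 rose: the MADS20-named Zm00004b038157 was at 2.39 ± 1.16 CPM in A12 and 28.7 ± 13.7 CPM in B46 (edgeR log2 fold change -3.58, SE 0.46, adjusted p = 0.00587). The MADS14-named Zm00004b005152 had 201 ± 24.8 CPM in A12 and 271 ± 14.2 CPM in B46 (edgeR log2 fold change -0.43, SE 0.11, adjusted p = 0.0559). All 4 tested genes of the SVP class, repressors of the floral transition and of floral organ genes in Arabidopsis, fell, led by the MADS55-named Zm00004b022967 at 2.43 ± 0.300 CPM in A12 and 121 ± 46.9 CPM in B46 (edgeR log2 fold change -5.64, SE 0.32, adjusted p = 0.000267). The MADS55-named Zm00004b015192 fell by 5.47 (SE 0.46, edgeR adjusted p = 0.00133) and the MADS47-named Zm00004b000584 fell by 5.14 (SE 0.62, edgeR adjusted p = 0.00490). The 2 tested genes of the SOC1 class, promoters of flowering, both named MADS56, were not called by edgeR, DESeq2 or limma, and 0 had an unadjusted p under 0.05. The falls named here passed the threshold with each library left out in turn. Their log2 fold changes moved most to -4.28 for Zm00004b000584 without B46 replicate 3 and to -6.07 for Zm00004b015192 without A12 replicate 2, and SVP-class calls numbered 3 without A12 replicate 3 or B46 replicate 2. Across all these classes 12 of 27 tested genes rose, beside 4.61% of all genes, 5 fell, beside 5.25%, and 10 were not called.

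**Figure D3:**
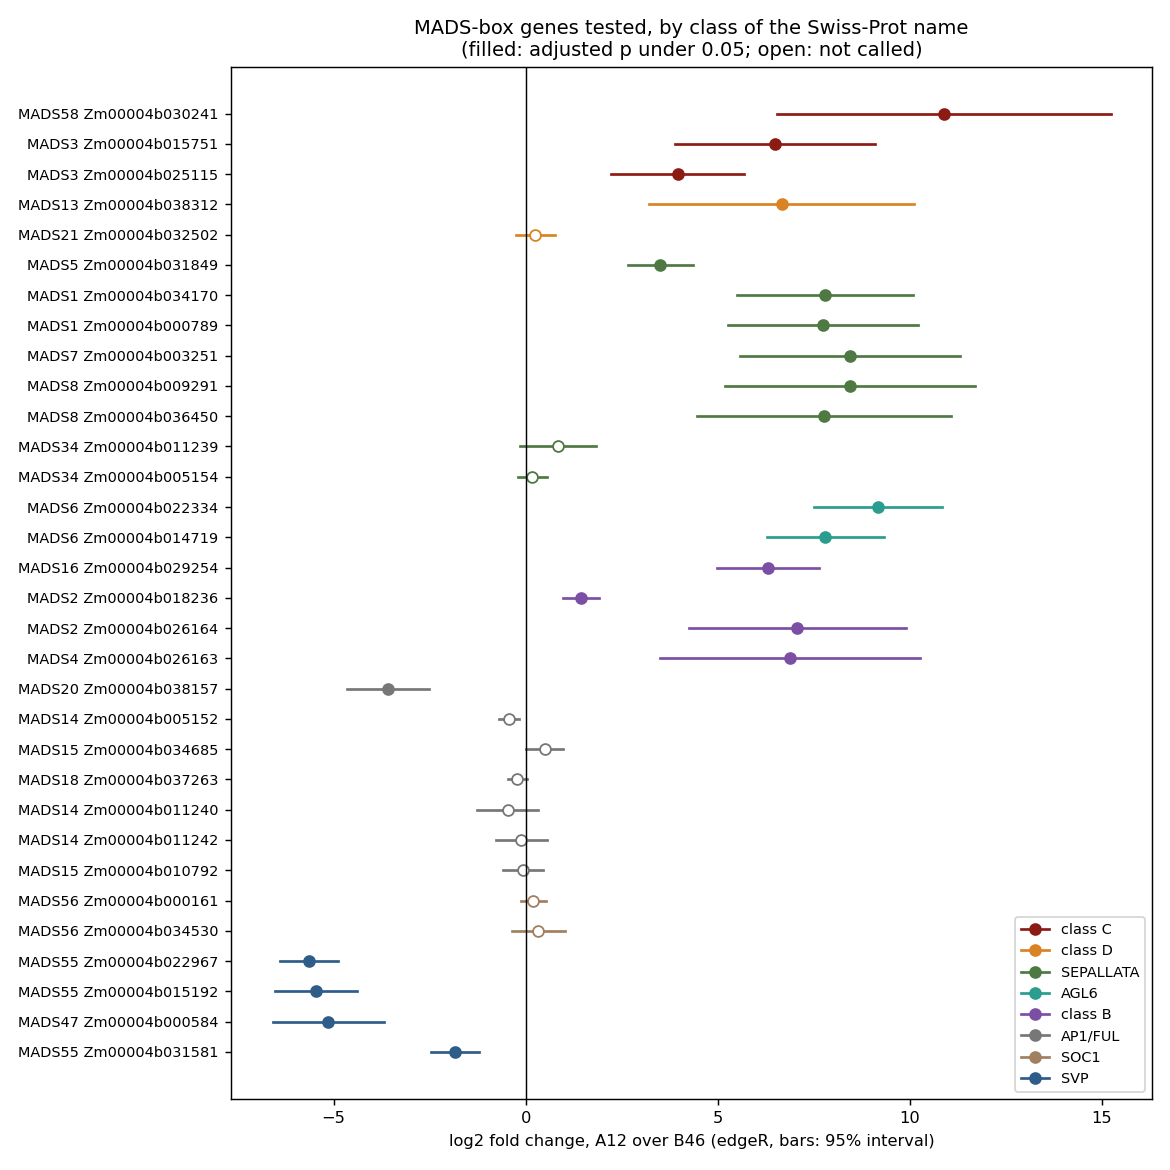
log2 fold change (A12 over B46) of the MADS-box genes tested with edgeR, with 95% intervals as bars, coloured by class. Filled points passed the adjusted p threshold of 0.05. C-class, AGL6-class and class B genes lie right of 0 and SVP-class genes left of 0, and the value of the MADS58-named gene, which had 0 reads in B46, depends on the prior count and is no estimate of its size.

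Summed over each class, the D-class genes differed most between A12 libraries, as a ratio, among the classes given here. Much of this came from leaving out the even Zm00004b032502. With it, the D-class sum was 72.5, 7.17 and 24.9 CPM in A12 replicates 1, 2 and 3, against 5.96, 5.48 and 4.13 CPM in B46. That ratio is close to the one of the C-class sum. The D-class sum without Zm00004b032502 was 67.4, 0.974 and 18.4 CPM in A12 replicates 1, 2 and 3, against 0.131, 0.446 and 0.0646 CPM in the B46 replicates. The C-class sum was 49.0, 5.98 and 17.2 CPM in A12, against 0.393, 0.319 and 0.129 CPM in B46. The SEPALLATA-class sum was 850, 301 and 455 CPM in A12, against 129, 119 and 66.0 CPM in B46. Unlike the D-class sum without Zm00004b032502, it keeps genes that were even across A12, so these sums are not like for like. In A12 replicate 2 it held 83.6 and 49.2 CPM of the MADS34-named genes, not called, and 84.1 CPM of the MADS5-named gene. From replicate 1 to replicate 2 the MADS1-named genes fell 4.70-fold and 5.64-fold. The MADS7-named gene fell 8.64-fold and the MADS8-named genes 13.99-fold and 17.27-fold. All of these stayed above their B46 libraries, while the D-class sum was near its B46 level in A12 replicate 2. Class B summed to 243, 70.7 and 114 CPM in A12, against 20.2, 20.97 and 20.3 CPM in B46. It too keeps a more even gene, Zm00004b018236, at 41.8 CPM in A12 replicate 2. From replicate 1 to replicate 2 that gene fell 1.71-fold and Zm00004b029254 3.23-fold. The other class B genes, Zm00004b026164 and Zm00004b026163, fell 13.8-fold and 26.0-fold.

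**Figure D4:**
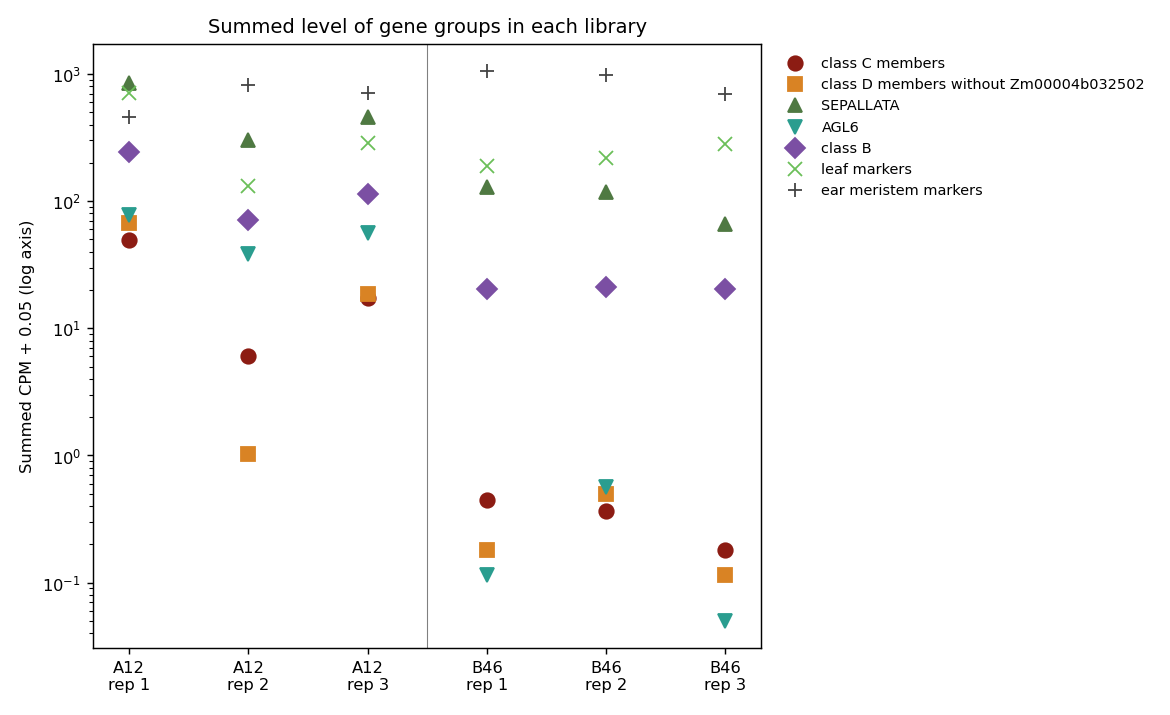
Summed level of gene groups in each library (CPM + 0.05 on a log axis), with A12 on the left and B46 on the right. All points of C-class, AGL6-class and class B genes in A12 lie above those in B46, and A12 replicate 2 has the lowest A12 sum for each of these groups.

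B46 libraries held traces of these genes. The 6 C-class and D-class genes other than Zm00004b032502 had 8, 12 and 3 reads in B46 replicates 1, 2 and 3. Over 8 genes of the SEPALLATA names MADS1, MADS7 and MADS8 and of the AGL6 class, the same libraries held 1, 64 and 0 reads, against 10349, 1767 and 4488 reads in the A12 replicates. The reads of these partners in B46 thus came almost entirely from replicate 2, where 6 of the 8 genes had reads.

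Markers of other tissue moved with the A12 replicates. Of 71 genes named for light-harvesting and photosystem proteins and the Rubisco small subunit of leaf, 44 were tested. Among these edgeR called 1 higher and 0 lower, beside 4.61% and 5.25% of all genes tested. DESeq2, which tested its own set of genes, called 6 of the 60 leaf genes with a read. Over all genes it called 13.7% of those it tested. The number of leaf genes it tested is not given here, so these are not like for like. Of the 71 genes, 14 had 0 reads in A12 and 12 in B46. Their sum was 712, 131 and 287 CPM in the A12 replicates, against 189, 217 and 282 CPM in the B46 replicates, and 41 of the 44 ran in the order replicate 1, 3, 2 within A12, as did 6 of the 7 C-class and D-class genes. A12 replicate 2 had a lower leaf sum than every B46 library. It also had the fewest reads of the MADS58-named gene in A12, at 44, while B46 libraries had 0, and nothing is drawn from this 1 library. The pollen and tapetum list summed to 63.0 to 135 CPM in A12 and 63.9 to 78.9 CPM in B46, with 41 and 40 of 59 at 0 reads. Its 7 tested genes were all named for polygalacturonases and none for pollen or tapetum. Of these, Zm00004b016802 alone gave 71.1 CPM in A12 replicate 1. The xylem list summed to 4.25 to 5.45 CPM in A12 and 2.42 to 4.07 CPM in B46, with 5 and 7 of 18 at 0 reads. In the pollen list 1 of 7 tested genes was higher in A12, beside 4.61% of all genes tested. It was the polygalacturonase QRT3-named Zm00004b006332 (edgeR log2 fold change 1.19, SE 0.29, adjusted p = 0.0428, not passing without A12 replicate 2 or 3 or B46 replicate 1 or 2). In the xylem list 1 of 3 was higher, beside the same 4.61%. It was the Laccase-12-named Zm00004b018496, with 26, 17 and 15 reads in the A12 replicates against 0, 0 and 0 in the B46 replicates (edgeR adjusted p = 0.0123, and 0.0602 without A12 replicate 3 and 0.0511 without B46 replicate 2). This gene passed the filter only through its A12 reads, so its call adds no weight to the count. The part of these tissues in the C-class and D-class levels was not tested.

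Ear meristem markers differed among themselves. Of 9 genes listed, 5 were tested, of which 2 fell, beside 5.25% of all genes tested, 0 rose and 3 were not called. Of the 9 genes, 2 had 0 reads in A12 and 1 in B46. Their sum was 455, 813 and 706 CPM in the A12 replicates, against 1045, 975 and 695 CPM in the B46 replicates, so that A12 replicate 1, highest for C and D genes, was lowest here. LIGULELESS 1 (Zm00004b006064), of ligule and branch formation, had 7, 1 and 0 reads in the A12 replicates, against 86, 88 and 77 in the B46 replicates (edgeR log2 fold change -4.84, SE 0.71, adjusted p = 0.00910). Without A12 replicate 1 that log2 fold change was -7.01, and without B46 replicate 2 the adjusted p was 0.0576 (edgeR). The gene passed the filter only through its B46 reads, so its call adds no weight to the count. RAMOSA 3 (Zm00004b037360), a limiter of ear branching, had 136, 535 and 424 reads in the A12 replicates, against 2768, 2490 and 908 in the B46 replicates (edgeR log2 fold change -2.43, SE 0.56, adjusted p = 0.0390, and 0.123 to 0.143 without A12 replicate 3 or B46 replicate 1 or 2). The knotted-1 gene of meristem maintenance had 429 ± 132 CPM in A12 and 507 ± 57.0 CPM in B46 (SD, n = 3 each; edgeR log2 fold change -0.24, SE 0.23, adjusted p = 0.535). The gene named WUSCHEL, the stem cell factor that activates AGAMOUS in Arabidopsis, had 0 reads in all 6 libraries. That name is a similarity match. A gene named WUSCHEL-related homeobox 1, Zm00004b006021, had 13, 52 and 52 reads in the A12 replicates, against 77, 71 and 44 in the B46 replicates (edgeR adjusted p = 0.443).

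Of 12 tested genes named for LEAFY or WUSCHEL-related factors, 1 was called, beside 9.86% of all genes: the WOX4-named Zm00004b040409 rose by 2.38 (SE 0.52, edgeR adjusted p = 0.0325). With 4, 3 and 10 reads in the B46 replicates, it passed the filter through its A12 reads, so its call adds no weight to the count. The FL-named genes, homologs of LEAFY, the direct activator of AGAMOUS in Arabidopsis, had log2 fold changes of -0.86 for Zm00004b006425 (SE 0.23, edgeR adjusted p = 0.0580) and -0.75 for Zm00004b040210 (SE 0.33, edgeR adjusted p = 0.198). Of 19 tested genes named for APETALA2, LEUNIG, SEUSS and related regulators of AGAMOUS, edgeR called 0, with 3 at an unadjusted p under 0.05, DESeq2 0 and limma 1. The lowest p among them was that of the APETALA2-like Zm00004b005586 (edgeR log2 fold change -0.39, SE 0.12, adjusted p = 0.0879).

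Polycomb proteins silence AGAMOUS outside the flower in Arabidopsis, and 2 of 11 tested genes of such names fell, beside 5.25% of all genes. limma called at most 1 of them and the fit with a replicate block 0. The EZ3-named histone methyltransferase Zm00004b001327 was at 12.975 ± 1.75 CPM in A12 and 19.7 ± 0.146 CPM in B46 (edgeR log2 fold change -0.60, SE 0.13, adjusted p = 0.0344). The EMF2B-named Zm00004b035660 was at 45.3 ± 6.08 CPM in A12 and 65.7 ± 5.77 CPM in B46 (edgeR log2 fold change -0.54, SE 0.13, adjusted p = 0.0399), and 4 of the 11 had an unadjusted p under 0.05. Of 13 tested genes named for carpel and spikelet factors 4 rose, beside 4.61% of all genes tested. Among them was Zm00004b000788, named for DROOPING LEAF, the rice carpel identity factor, at 78.9 ± 38.3 CPM in A12 and 10.9 ± 7.42 CPM in B46 (edgeR log2 fold change 2.85, SE 0.53, adjusted p = 0.0193). Its namesake Zm00004b034171 was not called, at 11.2 ± 3.43 CPM in A12 and 5.44 ± 4.37 CPM in B46 (edgeR adjusted p = 0.254). The YABBY5-named Zm00004b006761 rose by 2.53 (SE 0.43, edgeR adjusted p = 0.0144), with A12 replicate 1 the lowest A12 library at 19.2 CPM, opposite to the C and D genes. The other YABBY5-named gene, Zm00004b039969, was not called (edgeR log2 fold change 0.63, SE 0.22, adjusted p = 0.122). Across these lists 5 of 55 tested genes rose, 2 fell and 48 were not called, beside 9.86% called over all genes. Leaving out a library ended several of these calls while the log2 fold changes stayed near their size. The WOX4-named gene was no longer called without A12 replicate 2 or 3 or B46 replicate 1 or 2 (edgeR adjusted p = 0.0696 to 0.147, log2 fold change at least 2.07, and 3.06 without B46 replicate 3). The EZ3-named and EMF2B-named genes were not called without A12 replicate 3 or any 1 B46 replicate (edgeR adjusted p = 0.0746 to 0.155, log2 fold change -0.60 to -0.47). Zm00004b000788 and Zm00004b006761 were not called without A12 replicate 3 or B46 replicate 1 or 2 (edgeR adjusted p = 0.0594 to 0.106, log2 fold change 2.37 to 2.96), and Zm00004b000788 had 3.55 without B46 replicate 3. The FZP-named gene of spikelet fate, Zm00004b037561, was called in all 6 fits with 1 library left out. It had 298, 278 and 302 reads in the A12 replicates, against 5, 6 and 2 in the B46 replicates. The FZP-named gene thus passed the filter only through its A12 reads, and its call adds no weight to the count of carpel and spikelet genes. The gene named for DAD1, a lipase downstream of AGAMOUS in Arabidopsis stamens, had 0 reads.

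The genes with the pattern most like the MADS58-named gene were found by Pearson correlation of log2(CPM + 1) over the 6 libraries, among 22315 genes. These values are a description: the 6 libraries belong to 2 lines, so any gene that is higher in A12 and highest in replicate 1 scores well. The closest was the class B gene Zm00004b026164, named MADS2, with r = 0.999 and 72.7, 5.29 and 20.96 CPM in the A12 replicates against 0.131, 0.446 and 0.129 CPM in the B46 replicates. The SEPALLATA-class gene Zm00004b009291, named MADS8, had rank 9 with r = 0.997. The other 8 of the first 10 included genes named for the homeodomain factor HOX14 (Zm00004b037151), choline kinase 2 (Zm00004b025066), cyclin-P4-1 (Zm00004b014568) and the xylan glycosyltransferase MUCI21 (Zm00004b030517). Also among them were a gene named for a flavonoid O-methyltransferase (Zm00004b008215), Zm00004b024985 with a universal stress protein domain, Zm00004b024986 without annotation and an unnamed transcript model on chromosome 5. Among C and D genes, r was 0.995 for Zm00004b015751 (rank 20), 0.979 for Zm00004b025115 (rank 151), 0.966 for Zm00004b038312 (rank 302) and 0.366 for Zm00004b032502 (rank 7659).

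None of the 9 genes lies on chromosome 5, where the lines differ by the marked segment: they are spread over 5 chromosomes, with 4 of them on chromosome 3. Within 1 Mb on each side of them 205 other genes were tested, of which 7 were higher and 9 lower in A12, or 7.80%, beside 9.86% over all genes. Around the MADS58-named gene 30 were tested, of which 1 was higher and 1 lower. The windows were uneven: around Zm00004b018211 2 of 34 were higher and 4 lower, while around Zm00004b017525 0 of 17 were called. No listed gene model overlaps any of the 9 genes.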

How the data were processed

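Polyadenylated RNA of 6 maize ear pools was sequenced, 3 from A12 and 3 from B46 (groups as in the sample titles). The authors deposited whole-number read counts per gene, without normalization, and FPKM values for the same genes. Within a library each deposited FPKM was the count divided by gene length and by a constant of 0.962 to 1.02 times the total count. The submitters' processing notes list HISAT2 2.0.5 and DESeq2 1.20.0. Build, read counter and strand setting: not given in the sources used here. Coordinates are those of the deposited table. A RefSeq gene table had 0 identifiers in common with the files, so no sequences are shown.

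Counts were tested in R 4.3.3 with edgeR 4.0.16: default expression filter, TMM scaling, two-sided quasi-likelihood F-test over all genes without covariates, and Benjamini-Hochberg adjustment. The procedure was tested on simulated data. Where a line had 0 reads throughout, the fold was computed against 3 reads per library. DESeq2 1.42.0, limma 3.58.1 on log2(FPKM + 0.1) and log2(FPKM + 1) with a mean FPKM of at least 0.5, other scalings and filters, a replicate block and left-out libraries served as alternatives. Libraries of a line differed beyond sampling noise (chi-square per degree of freedom 3.05 to 43.6), so each counted as 1 replicate. Deviations of same-numbered libraries correlated at -0.087 to 0.0078, so replicate numbers do not pair them.

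All members are named. From each other MADS-box class and regulator list, up to 3 tested genes of lowest p were eligible for naming. Further genes of the same name or class were added afterwards where they differed. The 10 genes most correlated with the MADS58-named gene were taken among genes with a mean of at least 1 CPM in the higher line. MADS20, first listed with the SOC1 class, was moved to the AP1/FUL class, to which it belongs in rice, after its values were seen. The members and lists were chosen with earlier results of these data known, and several list genes were already known to differ.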

Additional observations from a re-analysis of the deposited data

How the results depend on the processing

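Of the 9 genes, 4 were called by edgeR. Counts of 4 or 5 were found with other size factors, no composition scaling, no filter, a stricter filter, the added filter of 10 reads in 2 libraries and DESeq2. limma called 3 on log2(FPKM + 0.1) and 1 on log2(FPKM + 1), and 0 to 6 were called with 1 library left out. The cause of these shifts was not tested, except that fewer libraries enter the fits without 1 library. The replicate block, although replicate numbers do not pair the libraries, left 4 of the 9 genes called. It gave 17 calls over the other MADS-box classes, 3 instead of 7 over the regulator lists and 967 instead of 2242 over all genes. DESeq2 called 3492 genes over the whole table. With 1 library left out, calls ranged from 10 to 20 over the other MADS-box classes, from 1 to 14 over the regulator lists and from 401 to 4446 over all genes. With 0.5 CPM added in place of 1, 7 of the 10 genes most like the MADS58-named gene were shared. No fold change of a tested C-class or D-class gene changed direction under any alternative run. At these depths a count of 0 in a library allows up to 3 reads and does not show absence.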
